A study of Mus musculus with 11 samples.

Results

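The promoters of the cytosolic ribosomal protein genes were examined in ChIP-Seq data of PU.1 from leukemic and normal erythroid cells. The group was set by a rule on names, which uses no read counts, though earlier results of these data were known. The rule took protein-coding genes of the mm9 annotation called Rpl or Rps with a number and at most 1 letter. Together with Rplp0, Rplp1, Rplp2 and Rpsa this gave 80 of 22359 genes. Of these, 48 belong to the large (60S) and 32 to the small (40S) ribosomal subunit, and they lie on 19 chromosomes. The names include 4 paralogues that are not standard subunits of most ribosomes, Rpl3l, Rpl10l, Rpl39l and Rps27l.

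PU.1, a member of the ETS family, is made in myeloid and B cells and also, in normal development, in immature erythroid cells. It binds purine-rich DNA with a GGAA core, and its forced expression in erythroid precursors causes erythroleukemia in mice. Ribosomal protein genes are transcribed in all growing cells from short CpG-rich promoters. Their RNA typically starts within a tract of pyrimidines, and ETS family sites are common near their start sites. Erythroid cells are sensitive to a lack of ribosomal proteins: mutations of several of these genes cause Diamond-Blackfan anemia, and loss of RPS14 contributes to the anemia of the 5q- syndrome.

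The leukemic cells were MEL cells, a murine erythroleukemia line carrying a fusion of GATA-1 to the estrogen receptor under puromycin selection. The normal cells were ES-EP, erythroid progenitors derived from mouse embryonic stem cells and kept dividing with Epogen, SCF, hIGF-1 and dexamethasone. Each cell type is 1 line, and read positions do not show expression, so cell identity was not checked against markers. Per cell type there were 2 chromatin preparations made separately, named A and B, each taken through immunoprecipitation with 1 lot of PU.1 antibody and read as 2 libraries. Input DNA that was not immunoprecipitated gave 1 library for MEL cells and 2 for ES-EP. The letters do not pair preparations across cell types. Between 2054667 and 5051235 uniquely aligned reads per library lay on chromosomes 1 to 19, X and Y. Reads were moved to the middle of their fragments and counted in the 500 bp around the annotated transcription start site (TSS) of each gene. Levels are given as CPM (reads scaled to the depth of the library, per 1000000 reads), and the ratio of ChIP to input is the ratio of these levels.

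PU.1 ChIP reads were unevenly spread over the ribosomal protein promoters. Rpl35a and Rpl36a were among the 3 promoters with the most reads when both cell types were averaged, whereas the median of the group lay close to that of CpG-rich promoters in general. The hexamers nearest to the ChIP maxima of 5 of the highest promoters are shown first, since the maxima differ in their place relative to the TSS. In each sequence, read 5′ to 3′ on the strand on which the hexamer occurs, capitals mark the hexamer. GAGGAA is the core of the PU.1 site, and CCGGAA is a core shared by many ETS factors.

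Rpl36a: ggcgctgggcggGAGGAAgtggagccgatg
Rpl35a: agatggcggaaaGAGGAAggcaagccccgc
Rps16: gcagcgccgcgaCCGGAAaagggaagcgcg
Rpl18: gctcggccaggtCCGGAAagacggaaccgc
Rps20: gtgctttgtgacCCGGAAcaggaaccgccc

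The Rpl36a site (chrX:131120014-131120043, mm9, plus strand) lies upstream of the annotated transcripts, with the middle of the hexamer 165 bp before the TSS. The Rpl35a site (chr16:33056553-33056582, minus strand) lies in the annotated UTR and reads against the gene, 29 bp after the TSS. The Rps16 site (chr7:29135761-29135790, minus strand), the Rpl18 site (chr7:52973464-52973493, minus strand) and the Rps20 site (chr4:3762794-3762823, plus strand) lie in the UTR as well, at 105, 38 and 4 bp.

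The place of the ChIP maximum, taken as the 100 bp with the most reads within 500 bp of the TSS, is given here with its distance from the printed hexamer. Each hexamer was chosen, out of both kinds, as the one nearest to the maximum, so a short distance is no result. At Rpl35a it was 10 bp after the TSS in both cell types, 19 bp from the hexamer. At Rpl36a it was 145 bp before the TSS in MEL cells and 170 bp before it in ES-EP, 20 and 5 bp from the hexamer. The window of Rpl36a has further GAGGAA hexamers centred 19 bp before and 227 bp after the TSS, and the stretch of 200 bases upstream of its TSS (chrX:131119993-131120192, plus strand) shows 2 of the 3 hexamers in capitals.

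Rpl36a upstream: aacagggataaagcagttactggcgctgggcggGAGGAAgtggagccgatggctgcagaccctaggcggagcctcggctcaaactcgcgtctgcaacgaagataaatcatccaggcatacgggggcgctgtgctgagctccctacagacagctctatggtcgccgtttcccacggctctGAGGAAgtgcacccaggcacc

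**Figure D1:**
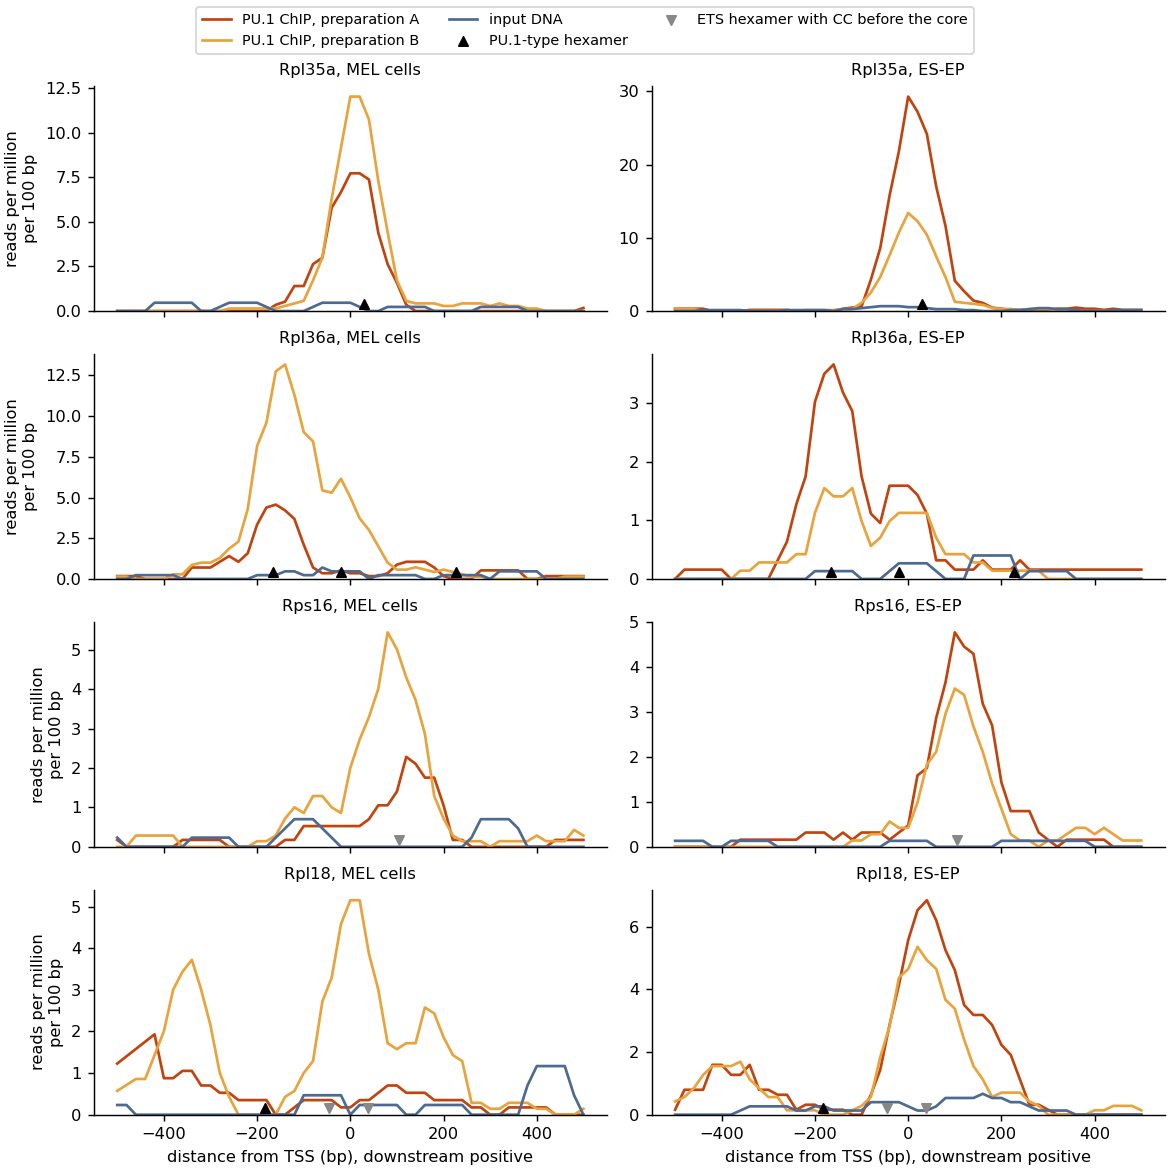
PU.1 ChIP level in CPM (y axis, in 100 bp sliding by 20 bp) against distance from the TSS in bp at Rpl35a, Rpl36a, Rps16 and Rpl18, with MEL cells left, ES-EP right, lines for preparations A and B and for input, and triangles for the 2 kinds of hexamer within 250 bp of the TSS. The ES-EP maxima of both preparations lie close to each other at each gene: near the TSS at Rpl35a and Rpl18, before it at Rpl36a and after it at Rps16. In MEL cells those of Rpl18 lie apart, 420 bp before the TSS in preparation A (1.93 CPM) and at the TSS in B (5.15 CPM).

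Rpl35a, a 60S gene mutated in Diamond-Blackfan anemia, had 21, 40, 45 and 58 ChIP reads in the 4 MEL libraries against 5 input reads. In ES-EP it had 73, 143, 26 and 89 reads against 10 input reads. Its ratio of ChIP to input was 11.1 in MEL cells (95% exact interval 4.65 to 34.5) and 18.5 in ES-EP (9.95 to 39.0). The TSS of another gene, Iqcg, lies in the same window, so these reads cannot be given to Rpl35a alone.

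Rpl36a, a 60S gene on the X chromosome, had the highest mean level of the ribosomal protein promoters in MEL cells, through preparation B, and was 16th in ES-EP. In MEL preparation A it was below Rpl35a (6.84 against 10.7 CPM). Its libraries had 14 and 25 reads in MEL preparation A and 62 and 101 in preparation B, with 6 input reads. In ES-EP the libraries had 16, 26, 9 and 18 reads, also with 6 input reads. The level was 6.84 and 23.3 CPM in the MEL preparations and 6.68 and 3.81 CPM in the ES-EP preparations, so MEL preparation A was near ES-EP preparation A and MEL preparation B stood above the other 3.

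**Figure D2:**
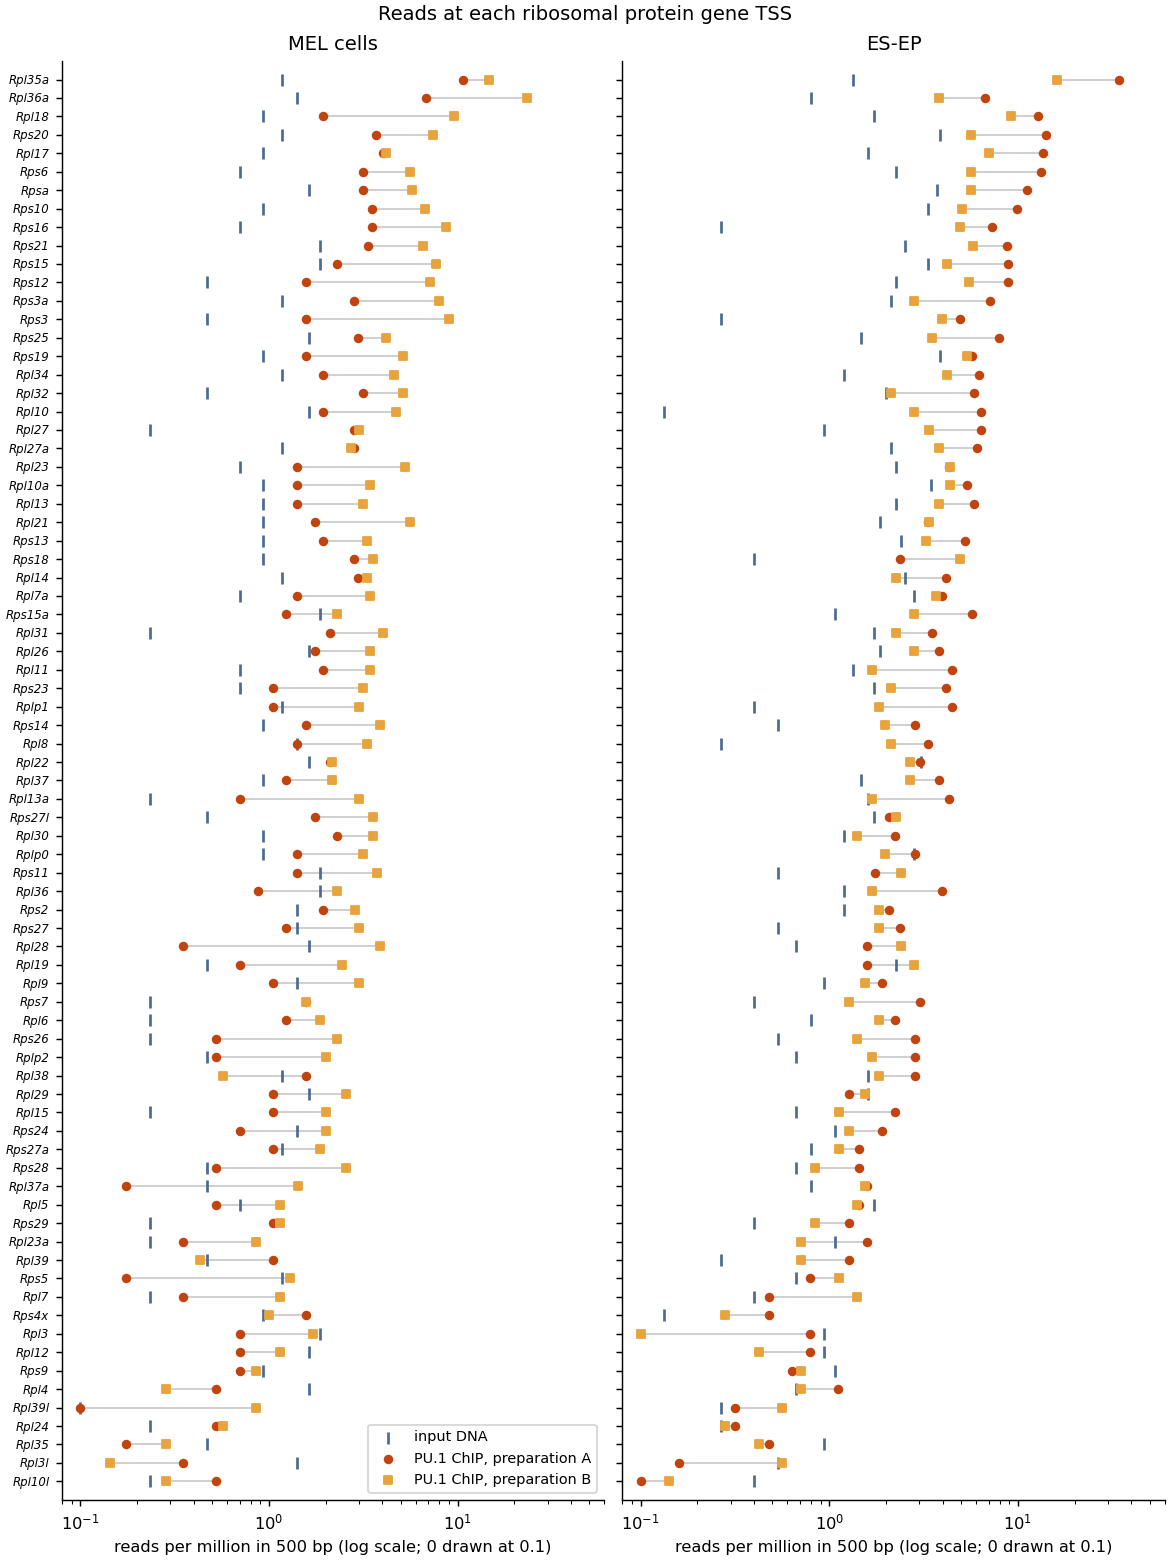
Level in CPM in 500 bp around the TSS (x axis, log scale, 0 drawn at 0.1) for 77 of the 80 ribosomal protein genes, sorted by their mean ChIP level, with MEL cells left and ES-EP right. Circles and squares are ChIP preparations A and B and bars the input. Preparation B lies to the right of A at most genes in MEL cells and to the left in ES-EP.

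Over the 80 promoters the median ChIP level was 1.40 CPM in MEL preparation A and 3.15 CPM in B (mean 2.28 ± 1.23, SD, n = 2). In ES-EP it was 3.34 CPM in preparation A and 2.18 CPM in B (2.76 ± 0.818, SD, n = 2). Other protein-coding TSSs had medians of 0.693 ± 0.235 and 0.671 ± 0.0482 CPM. The closer comparison is with the 10795 other CpG-rich TSSs (CpG observed over expected above 0.6 and GC above 50% in the window), since 75 of the 80 ribosomal protein windows but only 48.5% of the others are CpG-rich. The ribosomal protein median was 1.14 and 1.38 times the CpG-rich median in the A and B preparations of MEL cells, and 1.24 and 1.19 times in those of ES-EP. Single promoters spread widely around that median. In MEL cells 33 of 80 had a mean level over 1.5 times the CpG-rich median and 16 lay as far below it (27.74% and 30.19% of the other CpG-rich TSSs), and in ES-EP 31 and 19 did (31.74% and 33.45%). Input DNA was not level either. The input median of the ribosomal protein promoters was 1.33 times that of CpG-rich TSSs in MEL cells and 0.750 times in ES-EP.

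Summed over the 80 promoters, ChIP exceeded depth-scaled input 1.94-fold in MEL preparation A and 4.18-fold in B (mean 3.06 ± 1.58, SD, n = 2), and 3.42-fold and 2.02-fold in ES-EP (2.72 ± 0.992, SD, n = 2). The same ratios over the other CpG-rich TSSs were 1.99, 3.86, 2.35 and 1.35. By this ratio MEL preparation A was no higher at ribosomal protein promoters than at CpG-rich promoters, and the other 3 preparations were. By median ChIP level MEL preparation A was 1.14 times the CpG-rich median. The ratio also holds the input, whose median was 1.33 times the CpG-rich one in MEL cells and 0.750 times in ES-EP. Without the 3 promoters with the most reads over both cell types the ratios of the remaining 77 were 1.67, 3.59, 2.85 and 1.77. These promoters were left out for their level and none were left out of the CpG-rich group, so the 2 sets of ratios are not compared.

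For enrichment at single promoters, summed ChIP and input reads were put to an exact binomial test, two-sided, at the depths of the libraries, with Benjamini-Hochberg adjustment over all 22359 TSSs and a threshold of 0.05. The test compares reads of these libraries and does not hold the spread between preparations, so counts for each preparation are given beside it. It also depends on input, whose median here was 1.33 times the CpG-rich one in MEL cells and 0.750 times in ES-EP. The part of input in the shares called was not tested. In MEL cells 23 of 80 ribosomal protein promoters (28.75%) were enriched, against 10.5% of all TSSs and 20.3% of CpG-rich TSSs. Preparation A alone gave 3 (3.75%; 2.76% of all TSSs and 5.07% of CpG-rich TSSs), preparation B alone 33 (41.25%; 16.3% and 31.4%), and 3 were called in both (3.75%; 2.72% and 5.02%). The share called in preparation A, and in both MEL preparations, was thus below that of CpG-rich TSSs. In ES-EP 27 of 80 (33.75%) were enriched, against 9.19% of all TSSs and 17.0% of CpG-rich TSSs. Preparation A alone gave 35 (43.75%; 12.9% of all TSSs and 24.0% of CpG-rich TSSs), B alone 14 (17.5%; 3.95% and 7.18%), and 14 were called in both (17.5%; 3.81% and 6.99%). There were 16 promoters enriched in both cell types (6.03% of all TSSs), 7 enriched in MEL cells alone (4.5% of all), 11 enriched in ES-EP alone (3.15% of all) and 46 in neither (86.3% of all). Of the 10795 other CpG-rich TSSs, 1239 were enriched in both, 946 in MEL cells alone, 587 in ES-EP alone and 8023 in neither. No ribosomal protein promoter passed the test with ChIP below input.

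**Figure D3:**
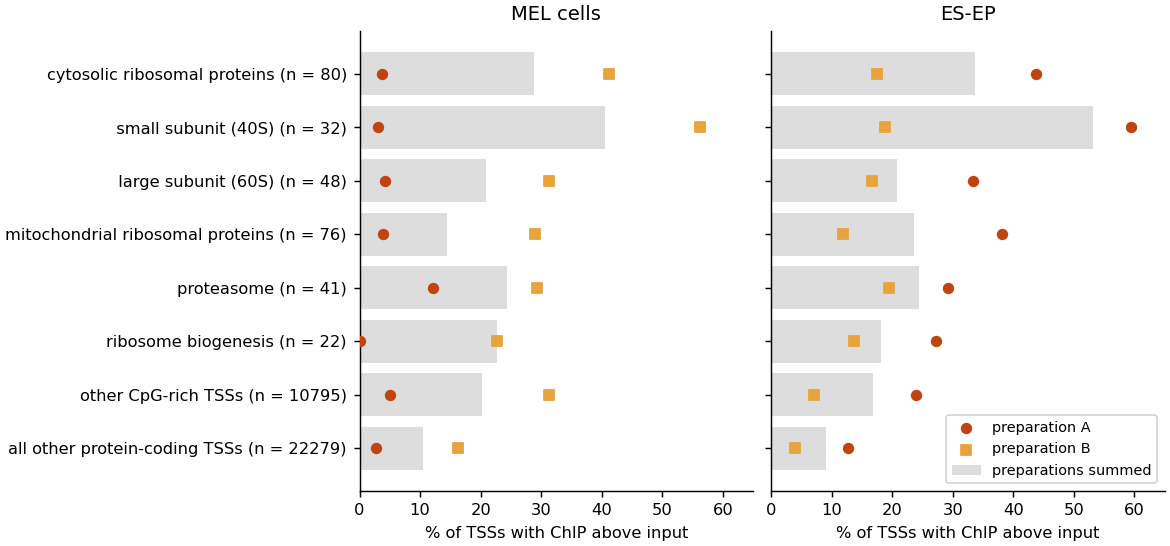
Percentage of TSSs with ChIP above input (x axis) in MEL cells and ES-EP for the ribosomal protein genes, their subunits and other gene groups. Grey bars are the preparations summed and symbols each preparation alone. In MEL cells the preparations of a group stand far apart: 3 and 33 of 80 ribosomal protein promoters were called in A and B.

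Rpl35a and Rpl36a were among the 3 promoters called in both MEL preparations. A ribosomal protein window held at most 8 input reads (MEL cells) or 36 (ES-EP), and the intervals of single promoters are wide for that reason. The levels of the 80 promoters had a similar order in all preparations. The Pearson correlation of log2(CPM + 0.5) was 0.77 between the MEL preparations, 0.91 between the ES-EP preparations and 0.76 to 0.85 between preparations of different cell types, over 80 promoters that share base composition and mappability. With the input of the same cell type it was 0.25 and 0.18 in the MEL preparations but 0.55 and 0.54 in the ES-EP preparations. Promoters with more ES-EP input thus also had more ES-EP ChIP reads, and the part of input in the ES-EP levels was not tested.

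With preparations summed, small subunit genes were called more often than large subunit genes in both cell types, without a test of this difference. In MEL cells 13 of 32 40S promoters (40.62%) and 10 of 48 60S promoters (20.83%) were enriched, and in ES-EP 17 of 32 (53.12%) and 10 of 48 (20.83%). The 60S share was close to that of CpG-rich TSSs (20.3%) in MEL cells and above it (17.0%) in ES-EP. Calls in preparation A of MEL cells were too few to order the subunits, with 1 of 32 (3.125%) and 2 of 48 (4.167%). The share of CpG-rich TSSs there was 5.07%. In preparation B of ES-EP the shares were close, with 6 of 32 (18.75%) and 8 of 48 (16.67%), beside 7.18% of CpG-rich TSSs. The median ChIP level of the 40S promoters was 2.61 ± 1.46 CPM in MEL cells and 3.68 ± 1.21 CPM in ES-EP (SD, n = 2), and that of the 60S promoters 2.16 ± 1.19 and 2.54 ± 0.905 CPM. Both subunits were measured in the same preparations, so these SDs do not give the spread of their difference. The 40S and 60S medians were 1.58 and 1.32 CPM in MEL preparation A and 3.65 and 3.01 CPM in B. In ES-EP they were 4.53 and 3.18 CPM in A and 2.82 and 1.90 CPM in B. The 40S median was thus the higher in each preparation.

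Of 16 genes mutated in Diamond-Blackfan anemia or lost in the 5q- syndrome, 5 passed in MEL cells (31.25%) and 6 passed in ES-EP (37.5%), near the shares of all 80 promoters (28.75% and 33.75%) and beside 20.3% and 17.0% of CpG-rich TSSs. Preparation A alone gave 1 of them in MEL cells and 9 in ES-EP, preparation B alone 8 and 2. Of the calls from summed reads, 4 were shared by both cell types, among them Rpl35a, Rps10 and Rpl27. Rps10, of the 40S subunit, had 20 and 47 reads against 4 in MEL cells (ratio 5.65, 2.11 to 21.3) and 62 and 36 against 25 in ES-EP (2.19, 1.40 to 3.55). Rpl27, of the 60S subunit, had 16 and 21 reads against 1 in MEL cells (12.5, 2.11 to 506) and 40 and 24 against 7 in ES-EP (5.12, 2.35 to 13.2).

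Rps19, the gene most often mutated in Diamond-Blackfan anemia, had 9 and 36 reads against 4 in MEL cells (3.79, 1.38 to 14.5), which passed the test, and 36 and 38 against 29 in ES-EP (1.43, 0.918 to 2.28), which did not. Its ChIP maximum lay 450 bp and 375 bp before the TSS, outside the counted window. Rps14, the 5q- gene, had 9 and 27 reads against 4 in MEL cells (3.04, 1.09 to 11.7; adjusted p = 0.160, binomial test over all TSSs) and 18 and 14 against 4 in ES-EP (4.48, 1.59 to 17.4; adjusted p = 0.0176). Rps7 was enriched in ES-EP, with 19 and 9 reads against 3 (5.22, 1.61 to 26.8). In MEL cells it had 9 and 11 reads against 1 (6.75, 1.08 to 280). Each of these calls held in 1 preparation, B of MEL cells or A of ES-EP, and Rps14 also passed in MEL preparation B alone. Enrichment of these 3 genes in a single cell type is no difference between the cell types, which is tested below.

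Rpl5 and Rpl11, whose products bind MDM2 when ribosome assembly fails, were enriched in neither cell type with preparations summed. Rpl5 had 3 and 8 reads against 3 in MEL cells (1.24, 0.327 to 6.90) and 9 and 10 against 13 in ES-EP (0.818, 0.383 to 1.80). Rpl11 had 11 and 24 against 3 in MEL cells (3.94, 1.24 to 19.998) and 28 and 12 against 10 in ES-EP (2.24, 1.10 to 5.02), and it passed in MEL preparation B alone and in ES-EP preparation A alone. The other 7 genes of this list (Rps24, Rps26, Rps27, Rps28, Rps29, Rpl15 and Rpl26) were not enriched in either cell type with preparations summed, with ratios from 1.01 (Rps24) to 6.75 (Rpl15, 1 input read) in MEL cells and from 1.47 (Rps24) to 3.92 (Rps26 and Rps27) in ES-EP. Of these, Rps26 passed in MEL preparation B alone, and Rps26 and Rps27 in ES-EP preparation A alone.

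Of the 3 genes of the acidic stalk, which recruits elongation factors to the ribosome, Rplp1 was enriched in ES-EP with 28 and 13 reads against 3 (7.65, 2.44 to 38.6). In MEL cells it had 6 and 21 reads against 5 (1.82, 0.691 to 6.06). Rplp0 had 8 and 22 against 4 in MEL cells (2.53, 0.891 to 9.88) and 18 and 14 against 21 in ES-EP (0.853, 0.477 to 1.56). Rplp2 had 3 and 14 against 2 (2.87, 0.681 to 25.6) and 18 and 12 against 5 (3.36, 1.29 to 11.1). Neither Rplp0 nor Rplp2 passed the test with preparations summed, while Rplp1 and Rplp2 passed in ES-EP preparation A alone and none of the 3 in ES-EP preparation B or in a MEL preparation. The maximum of Rplp2 lay outside the counted window, 360 bp after the TSS in MEL cells and 295 bp after it in ES-EP, with 23 and 45 reads in 100 bp.

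Other high promoters were Rpl18, Rps16, Rps20 and Rpl17. Rpl18 (60S) had 11 and 67 reads against 4 in MEL cells (6.58, 2.47 to 24.7) and 80 and 65 against 13 in ES-EP (6.24, 3.54 to 12.007), in a window shared with the TSS of Sphk2. Rps16 (40S) had 20 and 61 reads against 3 in MEL cells (9.11, 3.01 to 45.1) and 46 and 35 against 2 in ES-EP (22.7, 6.08 to 190). Its maximum lay 110 bp after the TSS in both cell types, 5 bp from the CCGGAA printed above, and its window has no GAGGAA. Rps20 (40S) had 21 and 52 reads against 5 (4.92, 2.02 to 15.6) and 89 and 40 against 29 (2.49, 1.65 to 3.86). Rpl17 (60S) had 23 and 29 reads against 4 (4.38, 1.61 to 16.7) and 85 and 50 against 12 (6.30, 3.49 to 12.5). All 4 were enriched in both cell types with preparations summed, but none of them in MEL preparation A alone.

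At the low end stood the paralogues and several standard subunits. Rpl3l, the muscle paralogue of Rpl3, had 2 and 1 reads against 6 in MEL cells and 1 and 4 against 4 in ES-EP. Rpl10l, a testis paralogue of Rpl10, had 3 and 2 reads against 1 in MEL cells and 0 and 1 against 3 in ES-EP. Rpl39l had 0 and 6 reads against 0 and 2 and 4 against 2. Rps27l differed from these, with 10 and 25 reads against 2 in MEL cells (5.90, 1.53 to 50.7), which passed the test, and 13 and 16 against 13 in ES-EP (1.25, 0.629 to 2.62). Standard subunits were as low in the counted window: Rpl35 had 1 and 2 reads against 2 and 3 and 3 against 7, Rpl24 had 3 and 4 against 1 and 2 and 2 against 2, and Rpl4 had 3 and 2 against 7 and 7 and 5 against 5. None of these last 3 promoters had more than 7 ChIP reads in a preparation within the counted window. Rpl35, however, had its maximum outside the window, 455 bp after the TSS in MEL cells and 450 bp after it in ES-EP, with 20 and 88 reads in 100 bp. Rpl24 also had its maximum outside the window, 290 bp after the TSS in MEL cells and 285 bp after it in ES-EP.

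A GAGGAA hexamer did not always go with many reads in the counted window. Rpl24 and Rpl10l were picked for being low and for holding the hexamer. Their windows held one each, shown here for comparison with those of the highest promoters.

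Rpl24: aacactagcctgGAGGAAataaaatggcac
Rpl10l: atcatagagactGAGGAAgacttgaagata

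The Rpl24 hexamer (chr16:55966271-55966300, mm9, plus strand) lies 171 bp before the TSS and that of Rpl10l (chr12:67385432-67385461, plus strand) 58 bp before it, and both are upstream of the annotated transcripts. At Rpl24 the ChIP maximum lay outside the counted window, 290 bp (MEL cells) and 285 bp (ES-EP) after the TSS. At Rpl10l it lay 240 bp (MEL cells) and 395 bp (ES-EP) after the TSS, with 4 reads in each. In each window the share of positions that start a unique 27-base sequence, to which a read can be placed, was 67.0% for Rpl24 and 82.2% for Rpl10l, beside a median of 96.9% over the 80 promoters, and its part in their low counts was not tested. Over the whole group GAGGAA was searched on both strands of the 500 bp window and found in 36 of 80 promoters (45.0%), beside 41.3% of all TSSs and 36.0% of CpG-rich TSSs. CCGGAA was found in 50 (62.5%, beside 24.4% and 38.7%). GGAA, which both hexamers contain, was in all 80 (99.1% of all TSSs). AAGATGGC, the core of the YY1 site, was in 10 (12.5%, beside 5.22% of all TSSs and 7.5% of CpG-rich TSSs). A run of at least 8 pyrimidines on the coding strand within 25 bp of the TSS was present in 34 (42.5%, beside 19.1% and 16.1%). The run held TTCC, which is GGAA on the other strand, in 19 (23.8%, beside 7.72% and 6.52%). A match of letters does not show that a factor binds there.

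Promoters with GAGGAA were called more often than those without it, among ribosomal protein genes as among others. In MEL cells 15 of 36 ribosomal protein promoters with the hexamer (41.67%) and 8 of 44 without it (18.18%) were enriched, beside 24.38% and 17.92% of the other CpG-rich TSSs. In ES-EP the numbers were 16 of 36 (44.44%) and 11 of 44, beside 23.38% and 13.29%. For CCGGAA they were 16 of 50 (32%) and 7 of 30 (23.33%) in MEL cells, beside 24.09% and 17.83%, and 20 of 50 (40%) and 7 of 30 (23.33%) in ES-EP, beside 23.39% and 12.86%. The 3 promoters enriched in both MEL preparations, and 10 of the 14 enriched in both ES-EP preparations, had a GAGGAA in the window. CCGGAA was in 1 of those 3 and in 10 of those 14. Among other CpG-rich TSSs called in both preparations, 274 of 543 (MEL cells) and 397 of 747 (ES-EP) had GAGGAA, and 262 and 388 had CCGGAA. Each promoter is 1 sequence, and these shares are a description.

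Over promoters with at least 10 reads in the highest 100 bp, the ChIP maximum lay at a median of 70 bp after the TSS in MEL cells (65 promoters) and 50 bp after it in ES-EP (69 promoters). In MEL cells 25 maxima fell within 100 bp of the TSS, 29 further downstream and 11 further upstream, and in ES-EP 27, 28 and 14. Of these maxima 12 in MEL cells and 15 in ES-EP were outside the counted window. In the 64 promoters with a maximum in both cell types, the places differed by a median of 25 bp, and by at most 50 bp in 43. The maximum lay within 50 bp of a GAGGAA in 7 of 28 promoters that had both in MEL cells and in 11 of 31 in ES-EP, and within 50 bp of a CCGGAA in 15 of 41 and 15 of 45. Hexamers were searched only in the counted window, so one beside a maximum outside it could be missed. These distances were not counted at other TSSs, so closeness of maxima and hexamers was not tested.

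The mean profile was highest downstream of the TSS as well. In MEL cells ChIP reads were highest in the 50 bp centred 25 bp after the TSS (0.410 CPM per 50 bp, 8.61 times the mean of 500 to 1000 bp away), and 125 bp after it once the 3 highest promoters were left out (0.371 CPM). In ES-EP the highest bin was also at 25 bp, at 0.653 CPM (0.480 CPM without those 3). The highest bin of other CpG-rich TSSs in ES-EP was 25 bp upstream, at 0.516 CPM. Input was also higher near these TSSs than in the flanks. ES-EP input at ribosomal protein genes was highest 175 bp after the TSS (0.247 CPM, 6.38 times its flanks), and MEL input at 25 bp (0.149 CPM, 3.67 times).

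**Figure D4:**
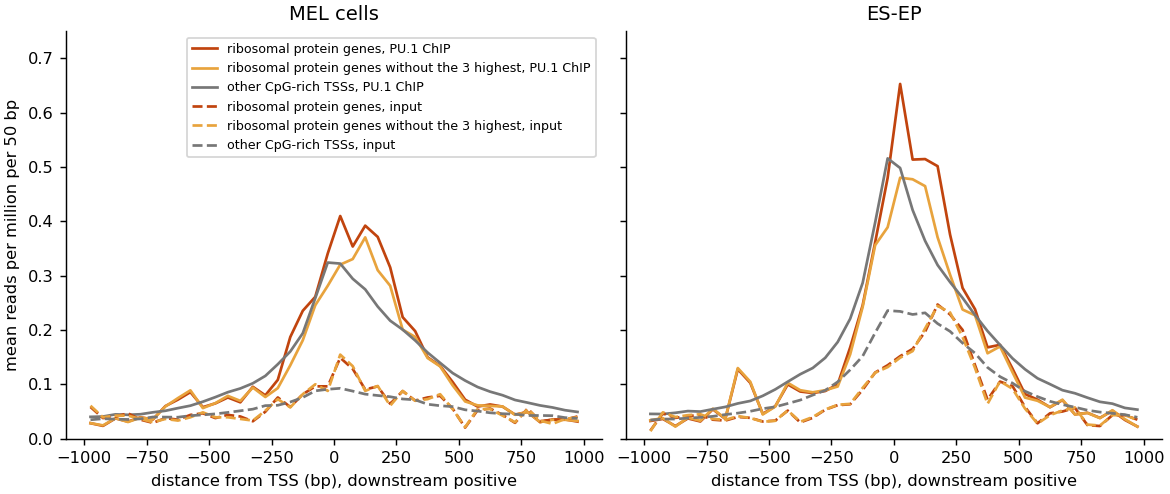
Mean CPM per 50 bp (y axis) against distance from the TSS in bp, for all ribosomal protein genes, for those genes without the 3 highest and for other CpG-rich TSSs, with ChIP as solid and input as dashed lines. Near the TSS the ChIP lines lie above the input lines in both cell types, and the ES-EP input of the ribosomal protein genes is highest 175 bp downstream of the TSS.

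Whether PU.1 at these promoters differed between MEL cells and ES-EP was tested over the 2 preparations of each cell type with limma (voom, two-sided moderated test, adjusted over 21242 TSSs with at least 1 read). Each cell type is 1 line, so this compares the lines and not leukemic with normal cells in general. None of the 80 ribosomal protein promoters passed the adjusted threshold of 0.05, beside 0.0377% of all TSSs (8 of 21242). At an unadjusted p below 0.05 there were 2, Rpl3 and Rps4x, beside 6.48% of all TSSs. The median log2 difference of the group (MEL minus ES-EP) was -0.52, beside -0.29 for all TSSs and -0.50 for other CpG-rich TSSs. It was 0.08 without MEL preparation A and -0.92 without MEL preparation B, and the median of all TSSs moved likewise, to 0.05 and -0.60.

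Rpl3 (60S) had 4 and 12 reads in the MEL preparations and 5 and 0 in ES-EP (log2 difference 2.32 ± 0.919, SE, adjusted p = 0.595 by limma). Its inputs held 8 (MEL cells) and 7 reads (ES-EP), and after depth scaling the input of each cell type exceeded both of its ChIP preparations. Leaving out a preparation mattered here: without ES-EP preparation B the log2 difference was 0.44. Rps4x, an X-linked 40S gene, had 9 and 7 reads against 3 and 2 (1.60 ± 0.806, adjusted p = 0.761 by limma). Rpl36a had the next largest difference toward MEL cells among promoters with 20 reads or more (1.29 ± 0.816, adjusted p = 0.793 by limma). The ratio of MEL to ES-EP input reads over the whole X chromosome was 1.56 times the median ratio of the autosomes. With each chromosome corrected by its ratio the Rps4x difference was 0.96, with an unadjusted p of 0.235 by limma in place of 0.0468, and that of Rpl36a was 0.64. With median-ratio scaling in place of total reads the Rpl36a difference was 1.69 and Rpl36a passed the test (adjusted p = 0.00392 by limma), one of 190 among all TSSs. That scaling moved the median of all TSSs from -0.29 to 0.09 and that of the ribosomal protein promoters from -0.52 to -0.08. With a window of 200 bp, which does not reach the maximum of Rpl36a, its difference was 0.18. Without MEL preparation A the Rpl36a difference was 2.18 and without MEL preparation B 0.42.

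The largest differences toward ES-EP were those of Rpl18 (-1.33 ± 0.802), Rpl37a (-1.32 ± 0.757) and Rpl17 (-1.24 ± 0.794), with adjusted p of 0.792, 0.792 and 0.793 by limma. The Rpl18 difference was 0.37 with the 5′-most TSS, -0.18 without MEL preparation A and -2.44 without MEL preparation B. Without MEL preparation A the Rpl37a difference was -0.13 and without B -2.64, whereas that of Rpl17 was -1.24 and -1.27. Rpl37a, a 60S gene, had 1 and 10 reads in the MEL preparations and 10 and 11 in ES-EP, or 0.176 and 1.43 CPM against 1.59 and 1.55 CPM. Rpl35a had a difference of -0.92 ± 0.890 and did not pass. MEL cells had 10.7 CPM at this promoter in preparation A and 14.7 CPM in B, and ES-EP had 34.4 and 16.2 CPM.

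The ratio of ChIP to input was also compared between the cell types with a conditional exact test on summed reads. None of the 80 passed, beside 0.121% of all TSSs, and 9 had an unadjusted p below 0.05, beside 7.81% of all TSSs. Among these was Rpl10, an X-linked 60S gene, with 11 and 33 reads against 7 input reads in MEL cells (2.12, 0.947 to 5.58) and 40 and 20 against 1 in ES-EP (33.6, 5.80 to 1348). Its ChIP levels overlapped between the preparations of the cell types, whereas the input level was 1.64 CPM in MEL cells against 0.134 CPM in ES-EP.

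**Figure D5:**
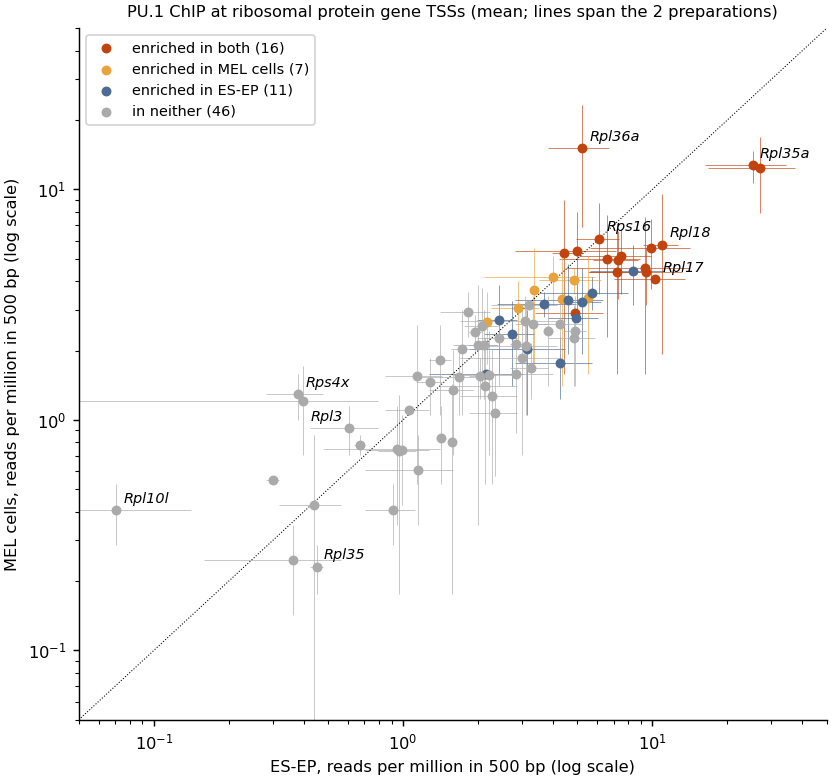
Mean ChIP level of each ribosomal protein promoter in ES-EP (x axis) and MEL cells (y axis), both in CPM on log scales, with lines from the lower to the higher preparation and colours for the cell types in which it was enriched over input. The dotted line marks equal levels. Rpl35a stands at the right, Rpl36a above the line, and Rpl3 and Rps4x above it among promoters enriched in neither cell type.

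Genes of related functions were counted in lists set by name. Of 6 matched genes for ribosome components or relatives outside the name rule (7 names listed), 3 passed in each cell type (50%). The shares were 10.5% and 9.19% of all TSSs, and 20.3% and 17.0% of CpG-rich TSSs, to which all 6 belong. Preparation A alone gave 1 of the 6 in MEL cells and 4 in ES-EP, preparation B alone 3 and 2. Fau, which encodes the 40S protein eS30 fused to a ubiquitin-like protein, had 40 and 78 reads against 8 in MEL cells (4.98) and 125 and 70 against 32 in ES-EP (3.41), and Rpl36al, a paralogue of Rpl36a, had 21 and 63 against 4 (7.08) and 72 and 45 against 29 (2.26). Both passed the test in both cell types. Of 5 elongation factor genes only Eef2 was enriched (20% in each cell type). Of 22 ribosome biogenesis genes 5 passed in MEL cells (22.73%) and 4 passed in ES-EP (18.18%), near the CpG-rich shares of 20.3% and 17.0%. Of 9 genes of RNA polymerase I 2 (22.22%) and 3 (33.33%) passed, and preparation A of MEL cells alone gave 0 of either list. Of 76 mitochondrial ribosomal protein genes 11 (14.47%) and 18 (23.68%) were enriched, below the CpG-rich share in MEL cells and above it in ES-EP, with 3 (MEL cells) and 29 (ES-EP) called in preparation A alone, 22 and 9 in B. Of 41 proteasome genes 10 and 10 (24.39% each) were enriched. Preparation A alone gave 5 of them in MEL cells and 12 in ES-EP, preparation B alone 12 and 8. Called in both preparations were 5 of 41 in MEL cells and 7 in ES-EP, beside 3 and 14 of the 80 ribosomal protein promoters.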

How the data were processed

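PU.1 was measured by ChIP-Seq in 8 libraries, with 3 input libraries. The authors sequenced on an Illumina GAII, aligned to mm9 with ELAND (version not given in the sources used here) and kept unique alignments with up to 2 mismatches. The deposited files list read positions and carry no measured value; all counts were made here. Starts count from 1. Reads were moved by 70 bp (MEL cells) or 65 bp (ES-EP) and counted in 500 bp around 1 TSS per gene of GENCODE vM1 on NCBIM37 (mm9): the TSS with the most protein-coding transcripts starting within 100 bp. Repeated positions were kept. Libraries of a preparation were summed. Preparations had 5697937 and 6987141 reads (MEL A and B) and 6284725 and 7095855 (ES-EP); inputs 4278560 and 7488885.

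ChIP and input were compared by exact binomial tests, their ratios between cell types by a conditional exact test (scipy 1.17.1), and cell types by limma 3.58.1 (voom, R 4.3.3), leaving out 1117 TSSs without a read. Methods were tested on simulated data. Intervals (95%, Clopper-Pearson) cover counting error only, without molecular identifiers. Correlations are across promoters, which are not independent replicates. Labels give no pairing of preparations; the A preparations' deviations from their group means correlated at -0.0819 between cell types. The members, lists and tests were chosen with earlier results of these data known. Named genes are the anemia and stalk genes, Rpl3l and Rpl10l, the 5 highest and 5 lowest in each cell type, and the 3 largest differences each way among promoters with at least 20 ChIP reads; others named were chosen after their values were seen, and some genes are not reported here by name. Alternatives were windows of 200 and 1000 bp, 1 read per position and strand, the 5′-most TSS, other scalings, input smoothed over 5 kb, other thresholds, first or second libraries alone, and leaving out each preparation or ES-EP input.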

Additional observations from a re-analysis of the deposited data

Results flagged for a closer look

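Within each cell type the 4 ChIP libraries were screened for one far from the others at 70 values, the 34 named genes and the median over the ribosomal protein genes, of which chance flags about 1 in 20. The only gene found was Rpl10l. In MEL cells its level was 0 CPM in the first library of preparation B and between 0.470 and 0.549 CPM in the other libraries (gap over range 0.857). In ES-EP it was 0.207 CPM in the second library of preparation B and 0 in the others (gap over range 1.0). These levels are 1 or 2 reads per library.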

How the results depend on the processing

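The number of ribosomal protein promoters enriched in MEL cells (23, beside 10.5% of all TSSs) was 10 with a window of 200 bp (4.07% of all), 13 with the first libraries alone (5.92%) and 3 to 33 without 1 preparation (2.76% to 16.3%). That in ES-EP (27, beside 9.19%) was 17 with the first libraries alone (4.58%), 14 to 35 without 1 preparation (3.95% to 12.9%) and 16 to 23 without 1 input library (5.3% to 6.6%). The share of all TSSs thus moved in the same direction. Other settings kept both numbers within 1.5 times. No promoter differed between cell types by limma under any setting except median-ratio scaling, which called 1 (Rpl36a); the fit with the replicate number as a block called 0, and the preparation letters are not pairs. Over all TSSs limma called 8, and 0 to 190 under the alternatives (3 with the block). The ratio test called 0 to 1 promoters without 1 preparation or input library (1 without ES-EP preparation A) and 0 under all other settings. With a window of 200 bp the share of promoters with GAGGAA was 23.8%, beside 19.6% of all TSSs and 15.9% of CpG-rich TSSs. That with CCGGAA was 43.8%, beside 14.8% and 24.5%. The summed ratio without 1 preparation ran from 1.94 to 4.18 in MEL cells and from 2.02 to 3.42 in ES-EP, and the median level from 1.40 to 3.15 and from 2.18 to 3.34 CPM. The cause of these changes was not tested, beyond the shorter sequence searched and fewer reads of a narrower window, or the fewer reads of fewer libraries. Few input reads per promoter limit single ratios, and 2 preparations limit the comparison of cell types.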
